A study of Mus musculus with 6 samples.

Results

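Receptors that bind the constant part of immunoglobulin G were followed through the cells of the tumor-bearing brain by 6 genes: Fcgr1, Fcgr3 and Fcgr4, the activating receptors of the mouse, Fcgr2b, the inhibitory receptor, Fcer1g, the signalling chain that the activating receptors share, and Fcgrt, the heavy chain of the neonatal receptor. They were chosen by gene symbol, and all 6 were found once each among the 31053 genes of the matrix. The study implanted 50000 cells of U87, an established human glioma line, into the brains of female SCID mice, which lack working T and B cells. The cells of 3 mice expressed the cytokine IL-33 and the cells of the other 3 carried the empty pcDNA vector. The mice were 8 weeks old at implantation, although another label gives 6 to 8 weeks. The IL-33 tumors were taken at 3 weeks and the pcDNA tumors at 6 weeks, so time and IL-33 cannot be told apart, and each arm rests on 1 human line in an immunodeficient host. CD45-positive cells of the tumor-bearing hemisphere were sorted and their RNA was counted by unique molecular identifiers (UMIs) at the 3′ end of transcripts.

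IgG receptors read antibody-coated targets. Fcgr1 binds monomeric IgG with high affinity, whereas Fcgr3 and Fcgr4 bind mainly immune complexes, and the activating receptors signal through the immunoreceptor tyrosine-based activation motif of Fcer1g to Syk. Fcgr2b carries an inhibitory motif of its own, recruits the phosphatase encoded by Inpp5d, and sets the threshold for activation when it is engaged beside an activating receptor. The ratio of activating to inhibitory receptors on microglia, macrophages and dendritic cells is therefore the usual summary of how readily such cells respond to antibody. Fcgrt works inside the cell with B2m, where it returns IgG and albumin from endosomes to the surface and takes part in antigen presentation.

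In the GENCODE annotation of GRCm38, the build used by the authors, 4 of the 6 genes lay within 276 kb of chromosome 1. They were Fcgr2b (chr1:170958617-170976547, minus strand), Fcgr4 (chr1:171018920-171029761, plus strand), Fcgr3 (chr1:171051174-171064935, minus strand) and Fcer1g (chr1:171229572-171234365, minus strand). Fcgr1 lay at chr3:96282909-96293969 and Fcgrt at chr7:45092990-45103851, both on the minus strand. All 6 are protein-coding, and none overlapped another gene of the matrix on its own strand. Fcgr2b and Fcgr3 are close relatives: 14.3% of the 31-base words of Fcgr3 transcripts occurred in a Fcgr2b transcript. In the last 300 bases, where the 3′ reads fall, the shared part was 0.893% of Fcgr3 words and 0% of Fcgr2b words, so little read exchange between them is possible there.

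Fcgr1, Fcgr4 and Fcgr2b were the 3 genes at least 2-fold higher in a named state of microglia-like cells than in low-Apoe cells, and the 250 bases before their start sites are shown for that reason, from RefSeq on GRCm38.p6, 5′ to 3′ on the strand of the gene. Capitals mark matches to GAGGAA, the core bound by the myeloid factor PU.1, and to TTCNNNGAA, the palindrome bound by STAT dimers, both searched on both strands.
Fcgr1, chr3:96293970-96294219, minus strand: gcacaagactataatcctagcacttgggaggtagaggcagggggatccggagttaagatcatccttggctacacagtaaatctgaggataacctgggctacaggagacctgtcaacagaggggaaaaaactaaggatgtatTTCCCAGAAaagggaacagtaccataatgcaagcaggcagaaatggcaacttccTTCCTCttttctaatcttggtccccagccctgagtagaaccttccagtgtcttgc
Fcgr4, chr1:171018676-171018925, plus strand: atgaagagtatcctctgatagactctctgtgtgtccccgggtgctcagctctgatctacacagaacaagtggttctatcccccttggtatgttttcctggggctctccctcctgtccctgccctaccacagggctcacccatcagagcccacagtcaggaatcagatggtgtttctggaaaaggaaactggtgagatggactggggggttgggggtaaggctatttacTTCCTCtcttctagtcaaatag
Fcgr2b, chr1:170976072-170976321, minus strand: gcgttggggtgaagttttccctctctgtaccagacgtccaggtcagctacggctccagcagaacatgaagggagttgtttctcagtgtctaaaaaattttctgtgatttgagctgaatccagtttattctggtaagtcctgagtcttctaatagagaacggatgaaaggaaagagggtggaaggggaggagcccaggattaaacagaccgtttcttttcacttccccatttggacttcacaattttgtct
Fcgr1 held both motifs, the PU.1 core starting 55 bases and the STAT palindrome starting 109 bases before the start site. Fcgr4 held the PU.1 core 22 bases before its start, and the window of Fcgr2b held neither. The PU.1 core was also found before the RefSeq starts of Fcgr3, so 3 of the 6 genes had it, against 23.3% of 32851 promoters of this length. The windows of Fcgr2b and Fcgr3 lie inside the GENCODE spans given above. For these 2 genes the stretch before the GENCODE 5′ end is therefore not described. The STAT palindrome was found before 7.02% of all promoters and before 1 of the 6 genes. The motifs overlapped nowhere in these windows, and a match is a description of the letters only.

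All 40411 barcodes were deposited in 1 matrix. Each ends in a suffix from 1 to 6 that marks its library, but the labels tie no suffix to a mouse. The study's supplement lists cell counts per library that equal the barcode totals of the suffixes, but groups were taken from the labels alone, so the matrix was read as 1 pooled sample of both groups, no comparison between IL-33 and pcDNA was made and no test was run. Filtering left 38751 cells with 95513956 UMIs, and the median per suffix ran from 1523 to 3484 UMIs per cell. The 6 genes together had 377424 UMIs: 159843 for Fcer1g, 130064 for Fcgr3, 45330 for Fcgr1, 24513 for Fcgr2b, 12685 for Fcgrt and 4989 for Fcgr4. A level is given as UMIs per 1000000 UMIs of a group (CPM), which for 3′ counting does not grow with transcript length, with an exact Poisson 95% interval that covers counting error only.

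Cells were sorted into groups by marker genes that include none of the 6 receptors, and groups are named by those markers. Microglia-like cells, with at least 3 of 7 microglial genes, made up 94.6% of the cells (36671). Of 4 microglial genes that no gate used, 1 was over 5 times as high in them as in all other cells (P2ry13, 570 against 111 CPM). The remaining groups were small: 90 monocyte-like cells, 70 monocyte-derived dendritic-like cells, 26 granulocyte-like cells, 119 NK-like cells and 264 choroid plexus-like cells. In these groups the same mark was passed by 4 of 4 choroid plexus genes, 4 of 4 monocyte genes, 3 of 4 dendritic genes, 4 of 5 granulocyte genes and 4 of 5 NK genes. Itgax missed it in the dendritic-like cells, with 49.3 CPM against 20.6 CPM elsewhere, and Klra8 had no UMI in the NK-like cells. Only 1 cell met the gate for border macrophages, and 3 did without the limit on genes per cell, so these macrophages are not described. A further 1040 cells met no gate.

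Background levels and repeated barcodes both touch these values. Choroid plexus-like cells, which are epithelial, held all 6 genes at 26.2% to 43.5% of the microglia-like level, whereas NK-like cells held Fcgr1 at 0.902% of it and no UMI of Fcgrt. The source of the receptor UMIs in choroid plexus-like cells was not tested. The 16-base barcode sequence was shared between suffixes for 14722 of the 40411 barcodes, 36.4%, and 490 sequences occurred under all 6 suffixes. Among gated groups the share of such barcodes ranged from 3.33% of monocyte-like cells to 98.6% of the Ddit4-positive low-RNA cells. Ratios are therefore given with and without shared barcodes where the 2 values differ beyond the counting interval.

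The balance of activating to inhibitory receptor RNA was highest in low-Apoe cells among the named microglia-like states with a median above 1000 UMIs. With all suffixes pooled, it was lower in the monocyte-derived groups than in any microglia-like state. It is given as UMIs of Fcgr1, Fcgr3 and Fcgr4 over UMIs of Fcgr2b, with the exact binomial 95% interval of the activating share turned into a ratio. In low-Apoe microglia-like cells, which had ample P2ry12 and Tmem119 and little Apoe, the ratio was 10.1 (9.79 to 10.4). It was 7.16 (6.34 to 8.10) in cells with Lpl and Fam20c, 5.25 (4.91 to 5.62) in interferon-response cells, 4.98 (4.63 to 5.36) in cycling cells and 4.75 (4.54 to 4.98) in cells high in the chemokines Ccl2 and Ccl12. Apoe-high Spp1-positive microglia-like cells stood at 4.66 (4.47 to 4.86) and MHC class II high cells at 4.05 (3.77 to 4.35). Monocyte-like cells came to 2.12 (1.81 to 2.48) and monocyte-derived dendritic-like cells to 1.36 (1.10 to 1.67). With the choroid plexus-like level subtracted as background, these became 1.35 and 0.00276. NK-like cells, with 22 activating and 13 Fcgr2b UMIs, gave 1.69 (0.816 to 3.66), an interval that spans both monocyte-derived values. These ratios pool suffixes that differ in their values and in their share of each group. The intervals cover counting error only, so the order of the groups also carries the mix of libraries. With all barcodes, the intervals of interferon-response, cycling, Ccl2 and Ccl12 high and Apoe-high Spp1-positive cells overlapped their neighbours in this order. Those of low-Apoe and MHC class II high cells overlapped none of the others named here. Those of monocyte-like and dendritic-like cells overlapped only that of NK-like cells. The MHC class II high value rests largely on suffix 1, which held 276 of its 463 cells at a ratio of 4.67. Suffixes 2, 4, 5 and 6 gave 4.98, 3.14, 2.16 and 2.35. The 70 dendritic-like cells were all in suffixes 4, 5 and 6, and suffixes 4 and 6 held 36 and 31 of the 90 monocyte-like cells. In suffix 6 monocyte-like cells gave 1.84 (1.45 to 2.35) and MHC class II high cells 2.35 (1.93 to 2.87), so these intervals overlapped. They overlapped in suffix 4 as well, at 2.1 (1.63 to 2.70) and 3.14 (2.21 to 4.54). Without shared barcodes MHC class II high cells gave 3.88, above the 3.35 of Apoe-high Spp1-positive cells. In cells of 2000 to 4000 UMIs they gave 5.7, against 4.95 in Ccl2 and Ccl12 high and 4.50 in Apoe-high Spp1-positive cells. Their place in the order thus changed with the setting.

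**Figure D1:**
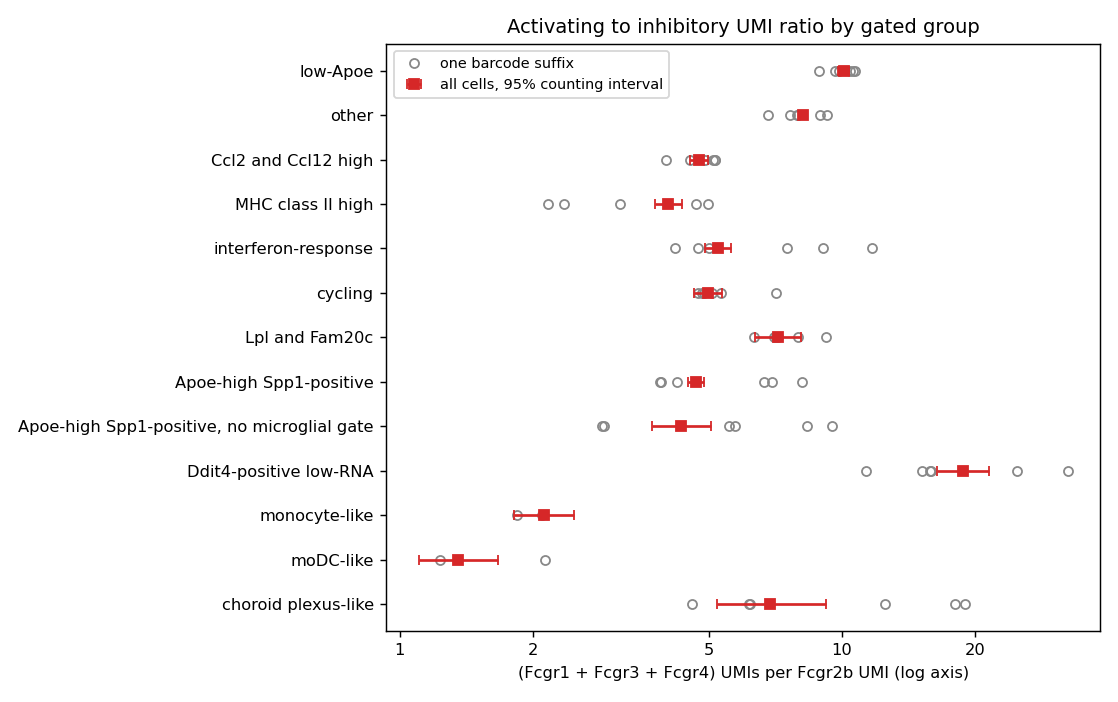
UMIs of the 3 activating receptors per UMI of Fcgr2b (horizontal log axis) in gated groups, with group names shortened by leaving out microglia-like and with moDC for monocyte-derived dendritic. Red squares are all cells of a group with the 95% counting interval, grey circles are single barcode suffixes with at least 20 cells; the low-Apoe circles lie between 8.89 and 10.7, all above the Ccl2 and Ccl12 high circles, between 4.0 and 5.17.

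Across the 6 suffixes the low-Apoe ratio ran from 8.89 through a median of 10.1 to 10.7, and the Ccl2 and Ccl12 high ratio from 4.0 through 5.01 to 5.17. These ranges did not overlap. The Apoe-high Spp1-positive ratio ran from 3.88 through 5.45 to 8.10, and the interferon-response ratio from 4.18 through 6.26 to 11.7, so the latter reached into the low-Apoe range. Within a suffix, low-Apoe cells had the higher ratio than Apoe-high Spp1-positive cells in 6 of 6 suffixes and than interferon-response cells in 5 of 6, the exception being suffix 2 with 9.83 against 11.7. Without shared barcodes the low-Apoe ratio was 9.93, that of Ccl2 and Ccl12 high cells 4.74 and that of interferon-response cells 4.95, while Apoe-high Spp1-positive cells, 60.4% of them with a shared barcode, came to 3.35 (3.19 to 3.52). Other microglia-like cells, the 18367 that met no named state, moved from 8.16 to 6.97, and cells with Lpl and Fam20c from 7.16 to 5.42. The widest move was in the 470 Apoe-high Spp1-positive cells that met no microglial gate, 82.6% of them with a shared barcode, from 4.32 (3.71 to 5.05) to 1.71 (1.36 to 2.16) in the 82 cells left, below the 2.06 of monocyte-like cells without shared barcodes.

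A high ratio in poorly covered cells went with the shared barcodes. The Ddit4-positive low-RNA cells had the highest ratio of all microglia-like groups, 18.7 (16.4 to 21.5), with suffix values of 11.4 to 32.4. The 5614 other microglia-like cells under 1000 UMIs without Ddit4 gave 15.2 (14.1 to 16.4). Of the 2195 Ddit4-positive cells, 30 had a barcode found under 1 suffix only, and their ratio was 6.6 (2.56 to 21.7). Taking all microglia-like cells, the ratio fell from 15.8 under 1000 UMIs to 5.53 at 4000 UMIs or more. Without shared barcodes it was 7.12, 7.11, 8.20, 7.30 and 5.51 in the 5 rising depth bins, so the high values of the shallow cells were not seen there. The part of shared barcodes in the low-RNA state was not tested beyond these values.

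**Figure D2:**
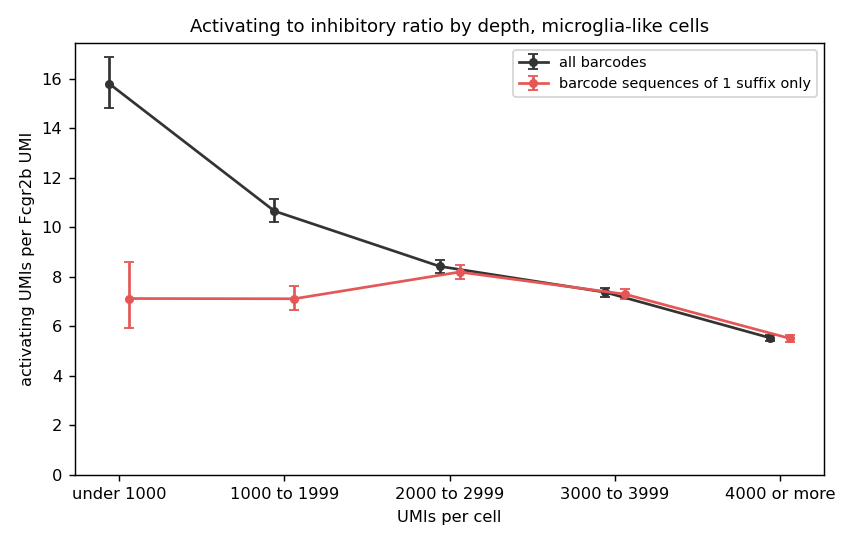
Activating UMIs per Fcgr2b UMI (vertical axis from 0) in microglia-like cells binned by UMIs per cell, with 95% counting intervals. Black includes every barcode and falls from 15.8 to 5.53, whereas red, restricted to barcode sequences found under 1 suffix, lies between 5.51 and 8.20.

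The level of Fcgr2b, the inhibitory receptor, was 176 CPM (171 to 181) in low-Apoe cells, with suffixes at 161 to 203 and a median of 177. It was 403 CPM in Ccl2 and Ccl12 high cells, where suffixes ran from 345 through 395 to 490, and no suffix reached down to the low-Apoe range. The fold over low-Apoe cells was 2.29 (2.18 to 2.41), with 6 of 6 suffixes higher. Apoe-high Spp1-positive cells had 438 CPM, 2.49 times the low-Apoe level (2.38 to 2.61), interferon-response cells 467 CPM, 2.66 times (2.48 to 2.84), and MHC class II high cells 500 CPM, 2.85 times (2.65 to 3.05). In each of these states every suffix with 20 cells was above its own low-Apoe cells. Monocyte-like cells had 647 CPM (567 to 734), the highest level with all barcodes. Without shared barcodes they had 655 CPM, and the 82 Apoe-high Spp1-positive cells with no microglial gate had 840 CPM. With all barcodes, below the low-Apoe level lay the Ddit4-positive low-RNA cells at 137 CPM and, at or under the choroid plexus-like level of 89.5 CPM, the NK-like and granulocyte-like cells. Without shared barcodes the 30 Ddit4-positive cells left had 262 CPM, against 177 CPM in low-Apoe cells. Of these 30 cells 29 were in suffix 2, with 5 Fcgr2b UMIs, too few to rank the groups. All microglia-like cells under 1000 UMIs without a shared barcode had 265 CPM.

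Fcgr4, the most restricted activating receptor, had the lowest level of the 6 in low-Apoe cells and the widest folds over it. Low-Apoe cells held 20.1 CPM (18.5 to 21.9), with suffixes at 16.4 to 28.2 and a median of 20.5. Interferon-response cells had 185 CPM, with suffixes from 83.9 through 171 to 253, all of them above the low-Apoe range. This was 9.22 times the low-Apoe level (8.09 to 10.5), and MHC class II high cells followed at 173 CPM, 8.58 times (7.46 to 9.86). Apoe-high Spp1-positive cells had 121 CPM, 6.00 times (5.37 to 6.71), and Ccl2 and Ccl12 high cells 94.0 CPM, 4.67 times (4.14 to 5.27). Even so Fcgr4 made up only 1.13% of activating UMIs in low-Apoe cells and 8.52% in MHC class II high cells. After each cell was thinned to 500 UMIs, 0.95% of low-Apoe cells (exact 95% interval 0.768 to 1.16) and 7.45% of interferon-response cells (5.49 to 9.84) had a Fcgr4 UMI, against 1.52% of choroid plexus-like cells, so the low-Apoe share was within the background. Unthinned, the shares were 5.15%, 37.6% and 2.27%, at median depths of 2800, 3680 and 1438 UMIs.

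Fcgr1, the high-affinity receptor, was highest in the interferon-response cells. They held 1092 CPM (1048 to 1136), against 505 CPM (497 to 513) in low-Apoe cells, a fold of 2.16 (2.07 to 2.26). Suffix values were 977 to 1556 with a median of 1052 in interferon-response cells and 468 to 534 with a median of 512 in low-Apoe cells, so the ranges lay apart. The next group, cycling cells, had 575 CPM, and its interval overlapped those of MHC class II high cells (571 CPM) and Ccl2 and Ccl12 high cells (544 CPM). In MHC class II high cells suffix 1 had 664 CPM and the other suffixes 302 to 549 CPM, and 2 of 5 suffixes were above their own low-Apoe cells. Fcgr1 was lower than in low-Apoe cells in cells with Lpl and Fam20c, at 328 CPM or 0.651 times (0.592 to 0.713), in 6 of 6 suffixes. In interferon-response cells Fcgr1 provided 44.5% of activating UMIs, against 28.5% in low-Apoe cells.

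The same could be followed cell by cell in microglia-like cells of 2000 to 4000 UMIs, where 7264 of 8073 cells under 3000 UMIs and 7861 of 8245 cells above had an unshared barcode. With 0 of the 11 interferon genes of the gate detected, Fcgr1 stood at 476 CPM, Fcgr4 at 28.5 CPM and Fcgr2b at 218 CPM. With 3 detected the levels were 808, 108 and 438 CPM, and with 6 or more they were 1492, 196 and 452 CPM. From 3 genes on Fcgr2b stayed between 370 and 468 CPM while Fcgr1 was higher at each step, and the ratio, 8.14 at 0 genes and 4.64 at 3 genes, was 6.10 at 6 or more. Comparing 4 or more genes with 0 within a suffix, Fcgr1 and Fcgr4 were higher in 5 of 5 suffixes and Fcgr2b in 4 of 5. The exception was suffix 2, with 169 CPM of Fcgr2b in 39 interferon-positive cells against 204 CPM. The ratio was lower in suffixes 4, 5 and 6 and higher in suffixes 1 and 2, at 9.65 against 8.62 and 14.9 against 8.46.

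**Figure D3:**
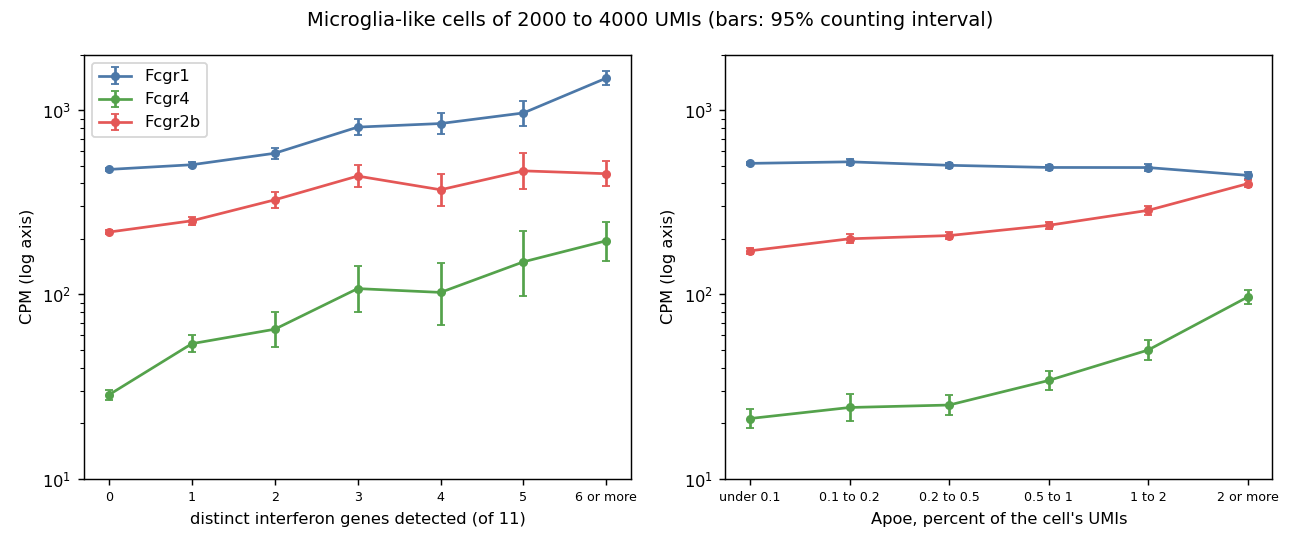
Levels of Fcgr1, Fcgr4 and Fcgr2b in CPM (vertical log axis) in microglia-like cells of 2000 to 4000 UMIs, by the number of interferon genes detected (left) and by the share of UMIs on Apoe (right), with 95% counting intervals. From the first to the last bin on the left all 3 genes are higher, Fcgr1 going from 476 to 1492 CPM; on the right Fcgr2b goes from 172 to 399 CPM and Fcgr4 from 21.2 to 96.8 CPM while Fcgr1 goes from 514 to 442 CPM.

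Apoe, a lipid carrier whose gene microglia are known to express more strongly in disease, ordered the receptors differently. From cells with under 0.1% of UMIs on Apoe to cells with 2% or more, Fcgr2b went from 172 to 399 CPM and Fcgr4 from 21.2 to 96.8 CPM, while Fcgr1 was 514 CPM in the first bin and 442 CPM in the last. The ratio fell at each step, from 9.94 (9.53 to 10.4) to 5.01 (4.79 to 5.25). Cells with at least 1% on Apoe had a lower ratio than cells under 0.2% in 6 of 6 suffixes, for example 6.26 against 9.73 in suffix 1 and 4.64 against 8.87 in suffix 4. The lower Fcgr1 depended on the barcodes in the gated groups, which are not held to this depth. With all barcodes Apoe-high Spp1-positive microglia-like cells had 445 CPM of Fcgr1 and low-Apoe cells 505 CPM. Without shared barcodes they had 525 and 507 CPM. With MHC class II UMIs the change came late: Fcgr4 was 34.7, 34.0 and 35.3 CPM at 0, 1 and 2 to 4 UMIs, and 120 CPM at 5 to 9 UMIs, where Fcgr2b was 330 CPM against 230 CPM at 0.

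Fcgr3, the most abundant IgG-binding receptor, kept to a narrow range in several states. It stood at 1247 CPM (1234 to 1260) in low-Apoe cells, 1278 CPM in Ccl2 and Ccl12 high cells, 1281 CPM in MHC class II high cells and 1177 CPM in interferon-response cells. Other microglia-like cells and Apoe-high Spp1-positive cells held 1497 and 1478 CPM, which without shared barcodes were 1295 and 1171 CPM. Cycling cells were lower, at 788 CPM (757 to 820), where suffixes ran from 722 to 827 while low-Apoe suffixes ran from 1184 to 1338. That is 0.632 times the low-Apoe level (0.606 to 0.659), lower in 6 of 6 suffixes, and Fcgr1 did not go the same way, at 1.14 times (1.08 to 1.20). The highest level, 2248 CPM in Ddit4-positive low-RNA cells, was matched by 2180 CPM in the other microglia-like cells under 1000 UMIs without Ddit4. Microglia-like cells under 1000 UMIs without a shared barcode held 1343 CPM.

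Fcer1g, the chain that carries the activation motif, was present in every group. It was 1510 CPM (1496 to 1525) in low-Apoe cells and 2057 CPM in interferon-response cells, 1.36 times as much (1.32 to 1.40). Monocyte-like cells held 3342 CPM (3159 to 3533) and granulocyte-like cells 3093 CPM (2625 to 3619), and these intervals overlapped. Per UMI of the 3 activating receptors there was 0.852 UMI of Fcer1g in low-Apoe cells, 2.44 in monocyte-like and 4.02 in dendritic-like cells, and 17.8 in NK-like cells. Other receptors of these cell types, such as natural cytotoxicity receptors, are known to use the same chain.

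Fcgrt, the recycling receptor, lay between 89.9 CPM in cells with Lpl and Fam20c and 165 CPM in MHC class II high cells across microglia-like states. The former was 0.727 times the low-Apoe level (0.606 to 0.866), lower in 6 of 6 suffixes. The latter was 1.33 times (1.18 to 1.50), higher in 5 of 5 suffixes. Monocyte-derived dendritic-like cells stood apart at 498 CPM (428 to 576), 4.03 times the low-Apoe level (3.45 to 4.68). Suffixes 4 and 6, which alone had 20 such cells, gave 487 and 554 CPM. Monocyte-like cells, at 137 CPM (102 to 180), did not share this. Its partner B2m was not higher to the same degree, with 2887 CPM in dendritic-like cells and 2345 CPM in low-Apoe cells.

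**Figure D4:**
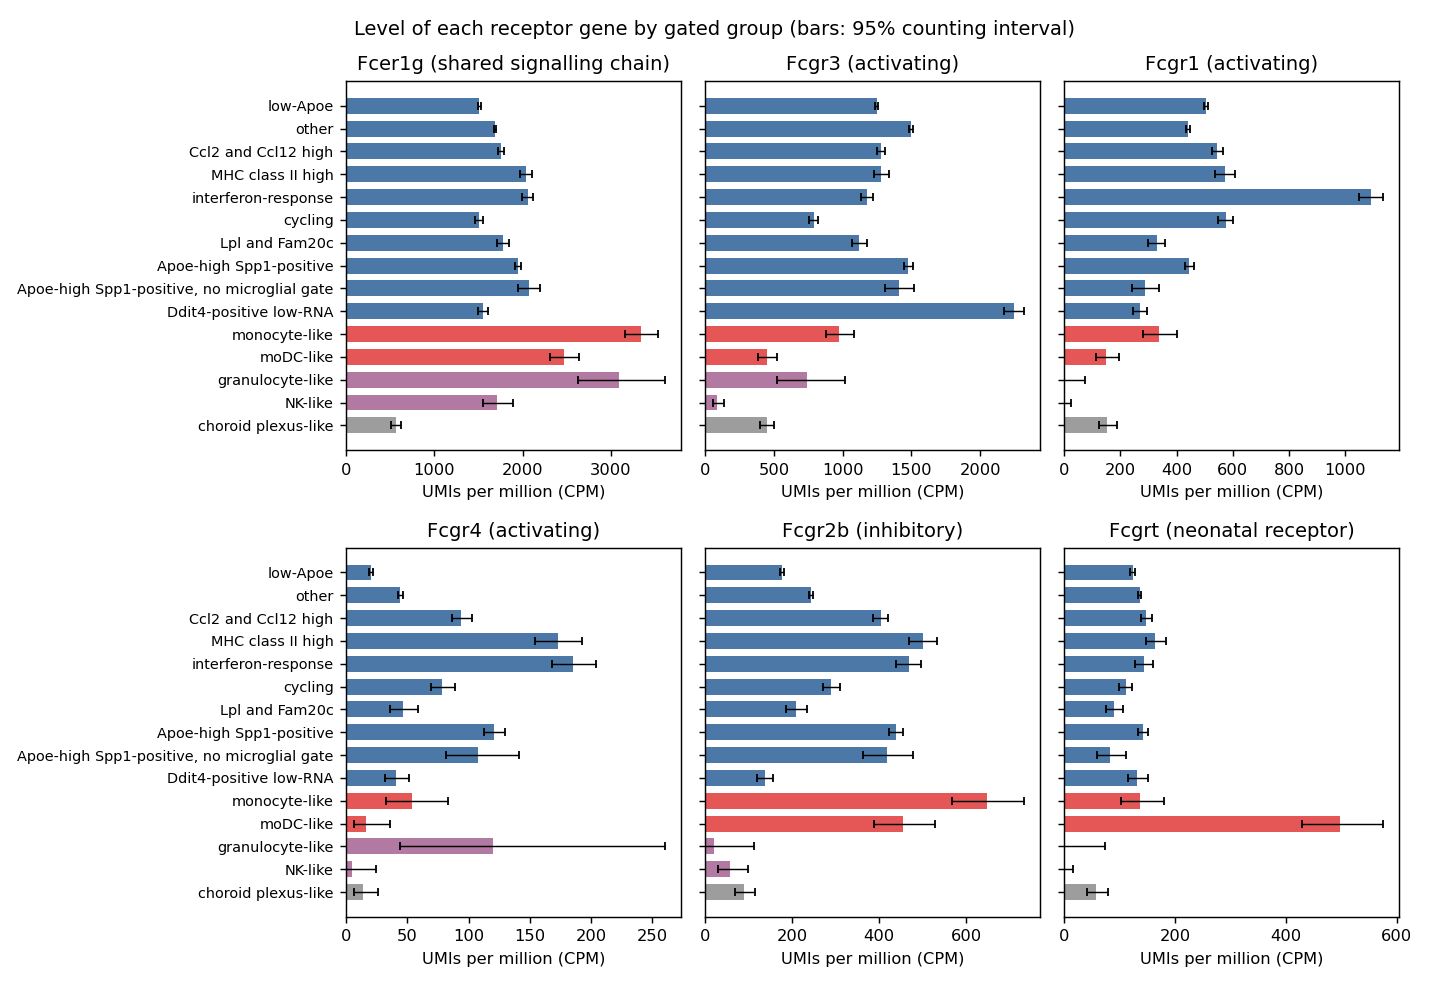
Level of each of the 6 genes (horizontal axes from 0, CPM, scale differing by panel) in 15 gated groups, with group names shortened by leaving out microglia-like and with moDC for monocyte-derived dendritic; error bars are 95% counting intervals. Blue bars are microglia-like groups and the Apoe-high Spp1-positive cells without a microglial gate, red bars monocyte-derived groups, purple bars granulocyte-like and NK-like cells and the grey bar choroid plexus-like cells; Fcgr1 peaks at 1092 CPM in interferon-response cells and Fcgrt at 498 CPM in dendritic-like cells.

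Counted over the set, the states differed from low-Apoe cells in few receptors, though often in more than the share of all genes. Among genes with a mean of at least 10 CPM over both groups, a filter that all 6 passed in every comparison, 2 of 6 were at least 2-fold higher in Ccl2 and Ccl12 high cells (1.27% of all genes), 2 of 6 in MHC class II high cells (3.35%), 3 of 6 in interferon-response cells (4.62%) and 2 of 6 in Apoe-high Spp1-positive cells (3.18%). Fcgr4 alone was 2-fold higher in cycling cells (8.08% of all genes), in cells with Lpl and Fam20c (4.4%) and in Ddit4-positive low-RNA cells (4.22%). The last was not seen at matched depth, since low-Apoe cells under 1000 UMIs held 43.1 CPM of Fcgr4 and the Ddit4-positive cells 40.6 CPM. In monocyte-like cells 3 of 6 were higher (20.2%), and in dendritic-like cells 2 of 6 were higher (21.7%) and 2 of 6 lower (22.7%). The median log2 fold of the 6 genes was 0.78 in interferon-response cells, against -0.10 for all genes, and 0.24 in Ccl2 and Ccl12 high cells, against -0.06.

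Levels of Fcgr1 and Fcgr3 differed between monocyte-like and dendritic-like cells. Monocyte-like cells held 976 CPM of Fcgr3, 338 CPM of Fcgr1 and 53.7 CPM of Fcgr4. In dendritic-like cells Fcgr1 and Fcgr3 were lower than in low-Apoe microglia-like cells, at 0.298 times (0.224 to 0.388) and 0.360 times (0.307 to 0.419). Their Fcgr2b level was 454 CPM in all, but 187 CPM in the 25 cells of suffix 4 and 683 CPM in the 29 cells of suffix 6, and their ratio was 2.13 and 1.23 in these suffixes. The levels of activating receptors in dendritic-like cells, 150 CPM of Fcgr1 and 449 CPM of Fcgr3, were close to those of the choroid plexus-like cells, 153 and 448 CPM. The part of background RNA in these levels was not tested.

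Granulocyte-like and NK-like cells carried the smallest repertoires. The 26 granulocyte-like cells had 37 UMIs of Fcgr3, 6 of Fcgr4, 1 of Fcgr2b and 0 of Fcgr1 and Fcgrt among 50121 UMIs, and a count of 0, read as up to 3 counts, allows up to 59.9 CPM. Their ratio of 43 had an interval of 7.32 to 1737. Neutrophils are known for Fcgr3 and Fcgr4, and the Fcgr4 level of 120 CPM (43.9 to 261) compared with 20.1 CPM in low-Apoe cells. The 119 NK-like cells had 392 UMIs of Fcer1g, 20 of Fcgr3, 13 of Fcgr2b, 1 each of Fcgr1 and Fcgr4 and 0 of Fcgrt, which by the same 3 counts allows up to 13.1 CPM. Fcgr3, through which NK cells are known to kill antibody-coated targets, was thus at 87.4 CPM (53.4 to 135), 0.0701 times the low-Apoe level. Of the 38 NK-like cells of suffix 4 there were 1 activating and 7 Fcgr2b UMIs, and of the 57 of suffix 6 there were 16 and 4.

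Within single cells, the share with both an activating and an inhibitory UMI was set beside the product of the separate shares. After thinning to 500 UMIs, 59.2% of low-Apoe cells had an activating UMI, 7.82% had a Fcgr2b UMI and 4.42% had both, where the product of the shares is 4.63%. In Apoe-high Spp1-positive cells both were found in 11.1% of cells and the product is 11%. In MHC class II high cells the values were 14.5% and 13.2%, in the 70 dendritic-like cells 7.14% and 3.43%, and in choroid plexus-like cells 2.27% and 0.617%. Monocyte-like cells had Fcgr2b without an activating UMI in 17.8% of cells, against 3.39% of low-Apoe cells. Choroid plexus-like cells, the background, had an activating UMI in 16.3% and Fcgr2b in 3.79% of cells. Before thinning, 36.0% of low-Apoe cells (median 2800 UMIs), 80% of monocyte-like cells (median 4264 UMIs) and 15.2% of choroid plexus-like cells (median 1438 UMIs) had a Fcgr2b UMI.

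**Figure D5:**
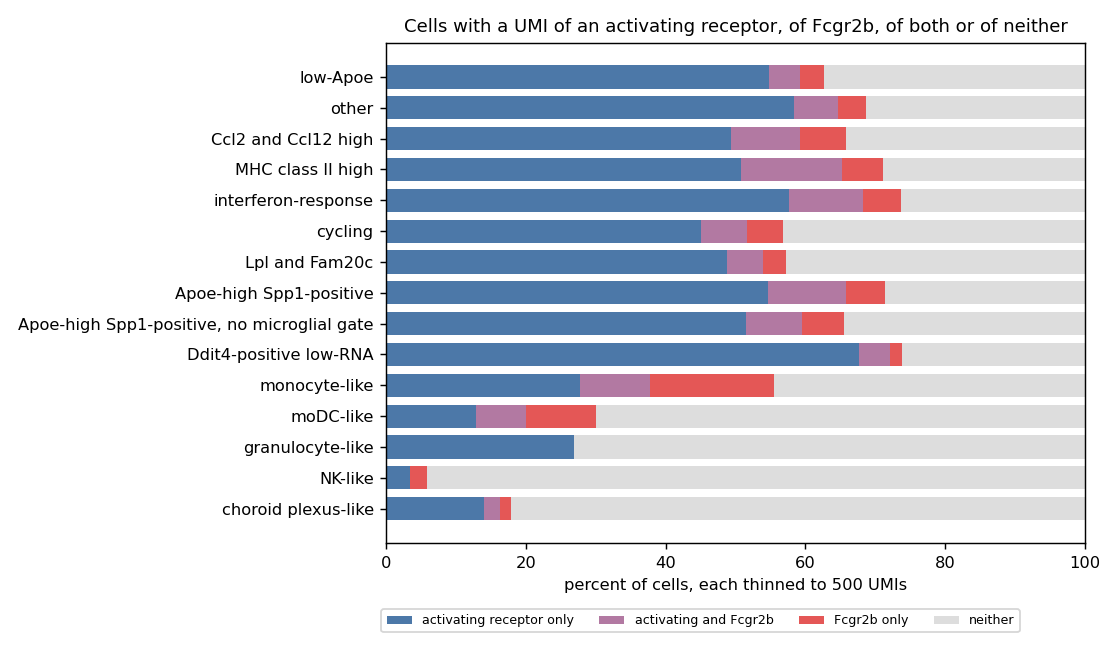
Percent of cells, each thinned to 500 UMIs, with a UMI of at least 1 activating receptor only, of an activating receptor and Fcgr2b, of Fcgr2b only or of neither, in 15 gated groups (group names as in the plot of levels). Both were seen in 4.42% of low-Apoe, 14.5% of MHC class II high and 10% of monocyte-like cells.

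Genes that carry the receptor signal were compared in the same way. Of 11 genes of activating signalling, 10 reached a mean of 10 CPM in interferon-response and low-Apoe cells, and 1 was at least 2-fold higher (4.62% of all genes), with a median log2 fold of 0.20. That gene was Fgr, a Src-family kinase, at 27.1 CPM against 7.04 CPM. It passed the mean of 10 CPM only through the interferon-response cells, where it was high, so the count adds nothing to these levels. Syk, the kinase recruited by Fcer1g, was 25.3 CPM against 41.2 CPM, and the Src-family kinase Lyn was 341 CPM against 278 CPM. Of the 6 inhibitory signalling genes, 5 reached that level and none was 2-fold higher or lower in Ccl2 and Ccl12 high, interferon-response, MHC class II high or Apoe-high Spp1-positive cells. Inpp5d, the phosphatase that Fcgr2b recruits, was 166 CPM in low-Apoe, 144 CPM in Ccl2 and Ccl12 high and 61.7 CPM in monocyte-like cells, so it did not follow Fcgr2b. Ptpn6, another phosphatase of inhibitory motifs, was 502 CPM in monocyte-like and 293 CPM in low-Apoe cells, and Dok2, an adaptor, 225 against 1.16 CPM.

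Of 5 subunits of the NADPH oxidase, which makes the oxidative burst that immune complexes trigger, 1 was at least 2-fold higher in interferon-response cells (4.62% of all genes) and in MHC class II high cells (3.35%) than in low-Apoe cells. That subunit was Cybb, the catalytic one. Cybb was 2.65 CPM in low-Apoe cells, 76.4 CPM in interferon-response cells, 83.6 CPM in MHC class II high cells and 719 CPM in monocyte-like cells. It passed the mean of 10 CPM only through the groups where it was high, so the counts add nothing to these levels. Cyba, its membrane partner, was 914, 1124, 1175 and 1738 CPM in the same groups. In monocyte-like cells 3 of 5 subunits, Cybb among them, were at least 2-fold higher than in low-Apoe cells, against 20.2% of all genes.

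Other antibody receptors and antibody genes were nearly silent, with a few exceptions. Of 9 such receptors only Fcrls, a microglial Fc receptor-like gene, was well expressed, at 320 CPM in low-Apoe and 513 CPM in cycling cells, and it had no UMI in monocyte-like, dendritic-like, granulocyte-like or NK-like cells. Trim21, the cytosolic IgG receptor, was 20.8 CPM in interferon-response and 10.2 CPM in low-Apoe cells. Fcmr, Fcamr and Fcer2a had no UMI in any cell that passed. Among antibody and B cell genes Ighg1 and Ighg2c had none, Igkc had 54, and Ms4a1 had 3. Ighm, the heavy chain of IgM, was at 356 CPM in low-Apoe cells, with Cd79b, a B cell receptor chain, at 16.7 CPM in the same cells.

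Across the 15 gated groups, the profile of each gene was set beside those of 5261 others with at least 50 CPM in 1 group, leaving out markers, by Pearson's r of log2(CPM + 10). The groups differ in depth and share libraries, so r is a description. Each group counts once, so the small groups outside the microglia weigh as much as the large ones. Fcgr1, for example, was 0 CPM in granulocyte-like and 4.37 CPM in NK-like cells. Tyrobp, the signalling chain most akin to Fcer1g, was nearest to Fcer1g (r = 0.95). Nearest to Fcgr1 were Hmox2 and Aif1, a macrophage calcium-binding protein (r = 0.99 for both). Fcgr3 was nearest to Ogfrl1 (0.96), Fcgr2b to Slc39a1 (0.95) and Fcgrt to Btk (0.95). Fcgr4 had no match as close, the nearest being Hcar2, a metabolite receptor, at r = 0.88. Among the 6 genes themselves r was highest for Fcgr2b with Fcgrt (0.84), Fcgr1 with Fcgrt (0.83) and Fcgr1 with Fcgr2b (0.82), and Fcer1g with Fcgr1 was at -0.14.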

How the data were processed

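Raw UMI counts were deposited by the authors as 1 matrix of genes by barcodes, made with Cell Ranger 3.1.0 per the matrix header. The study's methods give STAR alignment to mm10, aggregation of the libraries and Chromium 3′ v2 chemistry. The submitters' processing notes also name Seurat 3.1.5. Fc receptors were blocked with an antibody to CD16/CD32 before sorting in the study's flow protocol, and its part in these RNA counts was not tested. Libraries were sequenced in 3 batches that the sources used here do not tie to barcode suffixes, so no value within a batch was computed. The study's own cell filters were applied (more than 200 genes, no more than 2500 genes, a mitochondrial share below 5%), and 1660 barcodes failed them. No doublet caller was run, since the study excluded doublets in the sort and by its limit on genes.

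Marker gates were applied in a fixed order with the first match kept. The gates required 2 of 6 choroid plexus genes, 3 genes for NK-like or granulocyte-like cells with at most 1% of UMIs on 6 microglial genes, and no UMI of P2ry12, Tmem119 or Siglech for monocyte-derived cells. Microglia-like states used at least 3 of 17 cycling genes, 5 MHC class II UMIs, 4 of 11 interferon genes, Apoe at 1% or under 0.3%, or Ccl2 at 0.1% with Ccl12 at 0.4% of UMIs. Low-Apoe cells also had P2ry12 and Tmem119 at 0.4%. Ddit4-positive low-RNA cells had under 1000 UMIs. UMIs were summed per gate with Python 3.11.15, numpy 2.4.6 and scipy 1.17.1. Shares of cells were taken after thinning each cell to 500 UMIs, and no cell was shallower. Scripts were tested on simulated data. Genes named are the 6 receptors, listed partner genes and, per receptor, the 5 genes of most similar profile. The members and lists were chosen with earlier results of these data known. Cells of 2000 to 4000 UMIs, low-RNA cells without Ddit4 and the border macrophage gate with no gene limit were added after seeing the data. Alternative filters, gates, denominators and left-out libraries were computed, and every per-sample column of the matrix was used. Some genes of the lists are not reported here.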

Additional observations from a re-analysis of the deposited data

Results flagged for a closer look

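Values of 6 or 5 barcode suffixes were compared within groups for the ratio and for each gene, 70 sets in all. The groups were the microglia-like groups and the Apoe-high Spp1-positive cells with no microglial gate. In 4 sets 1 suffix lay far from the others by Dixon's criterion, which flags about 1 set in 20 by chance. Each suffix marks 1 library, and the 6 suffixes together cover both groups of mice, so suffixes can differ in group as well. In cycling cells, suffix 3 (34 cells) had an activating to inhibitory ratio of 7.11, against 4.71 to 5.34 in the others. In interferon-response cells, suffix 1 (54 cells) had 1556 CPM of Fcgr1, against 977 to 1103 CPM. In cells with Lpl and Fam20c, suffix 3 (27 cells) had 125 CPM of Fcgr2b, against 209 to 221 CPM. In low-Apoe cells, suffix 5 (786 cells) had 144 CPM of Fcgrt, against 118 to 127 CPM.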

How the results depend on the processing

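No paired analysis was possible because the labels tie no barcode suffix to a numbered mouse. With the choroid plexus-like level subtracted, the ratio was 13.4 in low-Apoe, 4.15 in Ccl2 and Ccl12 high, 4.10 in Apoe-high Spp1-positive, 1.35 in monocyte-like and 0.00276 in dendritic-like cells, and Fcgr1 in interferon-response cells 938 CPM. Thinned to 500 UMIs, the ratio was 10.9 in low-Apoe, 5.37 in Ccl2 and Ccl12 high, 6.05 in Apoe-high Spp1-positive and 1.94 in dendritic-like cells, Fcgr1 1046 CPM and Fcgrt in dendritic-like cells 714 CPM. With 1 more marker, Ccl2 and Ccl12 high cells gave 4.50, Apoe-high Spp1-positive cells 4.40, Fcgr1 1210 CPM and Fcgr4 in interferon-response cells 211 CPM. With no upper gene limit Fcgr1 was 962 CPM. With the reduced denominator Fcgr1 was 1371, Fcgr4 233 and Fcgrt 665 CPM. In cells of 2000 to 4000 UMIs, chosen after seeing the data, they were 1176, 155 and 272 CPM, the last in 5 cells. Without shared barcodes the Apoe-high Spp1-positive ratio was 3.35. Leaving out each suffix gave ratios of 9.99 to 10.2 in low-Apoe, 4.65 to 4.95 in Ccl2 and Ccl12 high, 4.39 to 4.98 in Apoe-high Spp1-positive, 1.97 to 2.34 in monocyte-like and 1.23 to 1.64 in dendritic-like cells, and levels of 1055 to 1121 CPM for Fcgr1, 161 to 202 CPM for Fcgr4 and 449 to 526 CPM for Fcgrt. Under every setting that gave values, low-Apoe cells had a higher ratio than Ccl2 and Ccl12 high and Apoe-high Spp1-positive cells, Fcgr1 was highest in interferon-response cells and Fcgrt in dendritic-like cells. With at least 1000 UMIs per cell the Ddit4-positive low-RNA group has no cells. The cause of these shifts was not tested.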

Other observations

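In several groups the ratios of suffixes 1, 2 and 3 did not overlap those of suffixes 4, 5 and 6. The ratio of Apoe-high Spp1-positive microglia-like cells was 8.10, 6.66 and 6.95 in suffixes 1, 2 and 3 and 3.91, 4.24 and 3.88 in suffixes 4, 5 and 6. That of interferon-response cells was 9.08, 11.7 and 7.52 in suffixes 1, 2 and 3 and 4.18, 5.00 and 4.73 in suffixes 4, 5 and 6. Fcgr2b in interferon-response cells was 326, 204 and 295 CPM in suffixes 1, 2 and 3 and 512, 507 and 532 CPM in suffixes 4, 5 and 6. MHC class II high cells gave ratios of 4.67 and 4.98 in suffixes 1 and 2 and 3.14, 2.16 and 2.35 in suffixes 4, 5 and 6. Narrower gaps in the same direction were seen in Ccl2 and Ccl12 high, cycling, Lpl and Fam20c and other microglia-like cells. Ddit4-positive low-RNA cells went the other way, with 15.8, 15.2 and 11.4 in suffixes 1, 2 and 3 and 15.9, 32.4 and 24.9 in suffixes 4, 5 and 6. In low-Apoe cells the ratio was 10.4, 9.83, 10.6, 9.62, 8.89 and 10.7 in suffixes 1 to 6, with no such gap.

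Without shared barcodes the ratio of Apoe-high Spp1-positive cells was 5.09 in suffix 1 and 3.44, 3.34, 2.98 and 3.33 in suffixes 2, 4, 5 and 6, so suffix 2 no longer stood apart, and suffix 3 had under 20 cells. A gap was still seen for interferon-response cells, with 7.72 and 9.76 in suffixes 1 and 2 and 4.15, 4.70 and 4.68 in suffixes 4, 5 and 6. The labels assign no suffix to a mouse or group, cell counts in the study's supplement were not used to assign one, and no comparison of groups was made from these values.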
